A study of Mus musculus with 2 samples.

Results

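The cells described here are those that the deposited annotation assigns to the class Car1, a class of erythroid progenitors in mouse bone marrow named after a carbonic anhydrase gene. The class was taken as annotated and held 5213 of the 14795 cells of the series, 3003 of 7889 in the library labelled Runx1 KO and 2210 of 6906 in the Control library. How the classes were assigned goes unstated in the sources used here. The cells had been sorted from C57BL/6 hind limb marrow as Lineage-, c-Kit+ and Sca1-, a gate that enriches committed myeloid, erythroid and megakaryocyte progenitors, and were sequenced with the 10x Genomics 3′ kit, which counts unique molecular identifiers (UMIs) near the 3′ end of transcripts. The library labelled Runx1 KO has the genotype label Runx1 KO, and neither the number and age of the mice nor the means of deletion is stated. The Control library pooled marrow of 1 Runx1f/f mouse and 1 Runx1f/- mouse, so part of its cells carried a germline Runx1 mutation on 1 allele. A further label field speaks of embryos, and the fields that name bone marrow were followed.

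Erythroid progenitors arise from progenitors shared with megakaryocytes, the cells that shed platelets. GATA1 acts in both lineages, KLF1 drives the erythroid programme and opposes the megakaryocyte one, and FLI1 and RUNX1 act on the megakaryocyte side. Committed erythroid cells take up carbonic anhydrases, heme synthesis, iron import and membrane skeleton genes first and make globin in bulk later. Integrin alpha IIb, encoded by Itga2b, is found on megakaryocytes and on the early progenitors that precede both lineages.

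Each group had 1 library, so differences could not be compared with a replicate spread and no p-value is given. Intervals are at 95% and cover counting error only. The class held 49700115 UMIs in the KO-labelled library and 44943983 in Control. Its cells had a median of 14621 UMIs and 3740 detected genes in the KO-labelled library, and 15393.5 UMIs and 3866 genes in Control. In the KO-labelled library 3.63% of the class had 10% or more mitochondrial UMIs, and in Control 2.81%. No cell barcode of the class was shared between the libraries, and 13 were shared over all cells. The transcript of the targeted gene went against the genotype label. Runx1 (ENSMUSG00000022952, GRCm38 chromosome 16, 92601466 to 92826149, minus strand) had 310 CPM, which are counts of a gene per 1000000 summed UMIs, in the class of the KO-labelled library and 116 CPM in Control, a ratio of 2.67 (2.58 to 2.75). The deleted segment is not described, and 3′ UMIs check no deletion that lies elsewhere in the gene, so the genotype could not be checked from these counts and every direction below is that of the library labelled Runx1 KO.

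The class made up a larger share of the KO-labelled library, and it stood in a different proportion to its neighbours. It held 38.1% (37.0 to 39.1) of the cells of the KO-labelled library and 32.0% (30.9 to 33.1) of Control. For each cell of the later erythroid class Hba-a2 there were 9.44 cells of the Car1 class in the KO-labelled library and 7.52 in Control. For each cell of the megakaryocyte class Pf4 there were 1.69 in the KO-labelled library and 9.95 in Control, since the Pf4 class held 22.6% of KO-labelled and 3.21% of Control cells. With the Pf4 class left out of the total, the Car1 class came to 49.2% of the remaining KO-labelled cells and 33.1% of the remaining Control cells.

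The markers given for the class, Car1, Klf1, Gata1, Car2 and Itga2b, were set against the other cells of each library to describe it. Car1 names the class and its assignment may rest on these genes, so the comparison is no test of the name. Car1 (ENSMUSG00000027556, chromosome 3, 14766216 to 14808368, minus strand), the carbonic anhydrase gene that names the class, had 261 CPM in the class and 87.3 CPM in all other cells of the KO-labelled library. In Control it had 2034 CPM in the class and 417 CPM in the other cells. Klf1 (ENSMUSG00000054191, chromosome 8, 84901928 to 84905291, plus strand), the erythroid Krüppel-like factor, had 102 CPM in the class and 40.0 CPM in other cells of the KO-labelled library, and 180 and 43.1 CPM in Control. Gata1 was above the other cells in both libraries too, at 117 against 53.9 CPM in the KO-labelled library and 115 against 25.3 CPM in Control. Itga2b was the exception, with 322 CPM in the class and 434 CPM in the other cells of the KO-labelled library, against 69.0 and 48.3 CPM in Control. Car2 had 568 against 416 CPM in the KO-labelled library and 1106 against 445 CPM in Control, so 4 of the 5 markers lay above the other cells in each library and the integrin gene in Control alone.

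Beside the neighbouring classes, Klf1 set the class off from the Pf4 class, and the globin genes set it off from the Hba-a2 class. Klf1 had 3.42 CPM in the Pf4 class of the KO-labelled library and 5.72 CPM in that of Control, and 327 CPM in KO-labelled and 332 CPM in Control cells in the Hba-a2 class. The erythropoietin receptor gene Epor had 53.9 CPM in the Car1 class of the KO-labelled library and 59.5 CPM in Control. Globin transcripts were scarce. The gene Hba-a2 had 1.59 CPM in the KO-labelled library and 1.02 CPM in Control, against 192 CPM in KO-labelled and 28.1 CPM in Control cells in the Hba-a2 class. The erythroid heme enzyme gene Alas2 had 9 UMIs in the KO-labelled class and 7 in Control. The anion exchanger gene Slc4a1 had 4 and 0 UMIs, and a count of 0 allows up to 3.

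**Figure D1:**
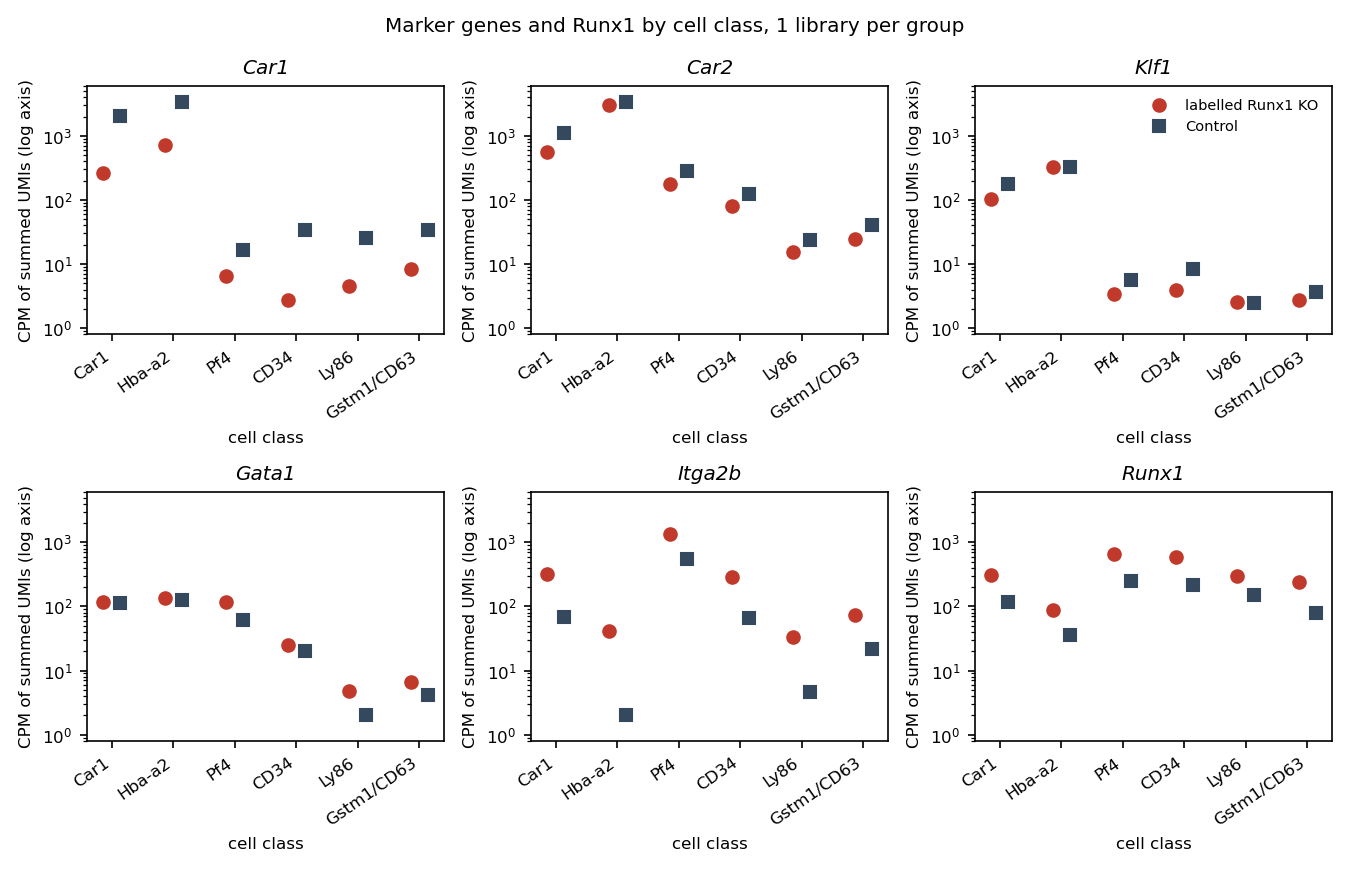
CPM of summed UMIs (log axis) of 5 class markers and of Runx1 in 6 cell classes, with the library labelled Runx1 KO as red circles to the left and Control as dark squares to the right of each class, 1 library each. In the Car1 class, Car1 had 261 CPM in the KO-labelled library and 2034 CPM in Control, Gata1 had 117 CPM in KO-labelled and 115 CPM in Control cells, and Itga2b had 322 CPM in KO-labelled and 69.0 CPM in Control cells.

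Genes that set the class apart from the other cells in both libraries were ranked by the smaller of the 2 log2 ratios of class over rest, which selects shared genes. The leading ones were Trib2, a pseudokinase, Apoe, the apolipoprotein E gene, and Optn, an autophagy receptor. Trib2 had 80.1 CPM in the class and 9.02 CPM in other cells of the KO-labelled library, and 97.3 and 6.19 CPM in Control. Apoe had 3784 and 980 CPM in the KO-labelled library and 1710 and 374 CPM in Control. Optn had 92.3 and 18.6 CPM in the KO-labelled library and 92.8 and 9.09 CPM in Control. They were followed by Vamp5, a vesicle fusion gene, Tgfbr3, the betaglycan co-receptor for TGF-beta, Aqp9, a water and glycerol channel, Hdac7, a histone deacetylase, Bcl11a, the repressor of fetal globin, Slc45a3, and Gnb4, a G protein subunit. Several were also high in a neighbouring class. Bcl11a had 266 CPM in KO-labelled and 307 CPM in Control cells of the Car1 class. In the Hba-a2 class it had 229 CPM in KO-labelled and 224 CPM in Control cells. In the KO-labelled library Gnb4 had 249 CPM in the Car1 class and 196 CPM in the Pf4 class, and Apoe 2004 CPM in the CD34 class. Trib2 was lower in the Hba-a2 class, at 18.1 CPM in KO-labelled and 25.9 CPM in Control cells. How the class was assigned is unstated and may rest on the expression of these same cells, so these values describe it and test nothing. Some genes set the class apart in 1 library alone. The log2 ratio of class over rest of Ifitm1 was -1.26 in the KO-labelled library and 1.06 in Control, and that of Slc25a21 was -0.01 in the KO-labelled library and 1.33 in Control.

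Between the libraries, most genes of the class had alike levels. Genes counted as measured had 30 CPM or more in 1 of the libraries and a total of at least 100 UMIs, and log2 ratios are of the CPM of the KO-labelled library over Control after adding 10 CPM to each. Whether a gene passed 1.5-fold was read on this scale, while folds given with an interval are of the CPM alone. Of 4714 measured genes, 3970 (84.2%) lay within 1.25-fold and the median log2 ratio was -0.01. At least 1.5-fold higher in the KO-labelled library were 173 genes (3.67%), and at least 1.5-fold lower were 92 genes (1.95%). At 2-fold these were 62 and 28 genes. These shares are the background against which each gene list below is read.

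The 2 measured carbonic anhydrase genes were both lower in the class of the KO-labelled library. Car1 was 7.79-fold lower (7.64 to 7.93), the second lowest of all named genes. Car2, the widely expressed red cell isoform on the same chromosome (14886273 to 14900770, plus strand), had 568 CPM in the KO-labelled library and 1106 CPM in Control, 1.95-fold lower. Car1 was also lower in the Hba-a2 class, at 716 CPM in the KO-labelled library and 3414 CPM in Control. In the Hba-a2 class Car2 had 3029.5 CPM in the KO-labelled library and 3383 CPM in Control.

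Of the 14 measured genes of the erythroid progenitor marker list, 5 were at least 1.5-fold lower and 1 was higher, with a median of -0.51. This median depended on the setting, at -0.10 with each cell weighted alike, -0.16 after thinning to 5000 UMIs, -0.13 with no minimum on CPM, -0.35 in cells without a UMI of Pf4, Gp1bb, Gp9 or Ppbp and -0.21 in own clusters that scored highest on this list. Besides Car1 and Car2 the lower ones included Klf1 at -0.76 and the metallothionein gene Mt2 with 20.9 CPM in KO-labelled and 50.8 CPM in Control cells. The heme breakdown gene Blvrb (KO-labelled 321, Control 471 CPM) and the blood group genes Ermap (KO-labelled 84.2, Control 127 CPM) and Rhd (KO-labelled 36.2, Control 54.6 CPM) had log2 ratios of -0.54, -0.54 and -0.48, under the threshold with 10 CPM added. Gata1, Aqp1 with 241 CPM in KO-labelled and 247 CPM in Control cells, Hemgn with 52.2 CPM in KO-labelled and 53.3 CPM in Control cells, and the transferrin receptor gene Tfrc with 64.1 CPM in KO-labelled and 70.9 CPM in Control cells had nearly the same level in the KO-labelled library and in Control. The gene higher in the KO-labelled library was the beta globin gene Hbb-bt, with 31.1 CPM there and 6.70 CPM in Control. Hbb-bt was also higher in the Gstm1/CD63 neutrophil progenitors of that library, at 4.12 CPM against 0.721 CPM, and the part of free RNA in its level was not tested. Near-identical copies such as Hbb-bt and Hbb-bs may share reads, so their single values are uncertain.

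Other genes of red cell construction differed little. Of 13 measured iron handling genes none passed 1.5-fold in either direction, with a median of -0.08 and a range of -0.39 for Steap3, an endosomal iron reductase, to 0.36 for Ncoa4, the receptor for ferritin breakdown. Of 6 measured heme synthesis genes, 1 was lower, Alad, the second enzyme of the pathway, with 97.0 CPM in the KO-labelled library and 155 CPM in Control. Alad came under 1.5-fold with each cell weighted alike, in cells without a UMI of the 4 megakaryocyte genes and in the clusters that scored highest on the erythroid list, at -0.54, -0.52 and -0.50. Cpox, a later enzyme, had 162 CPM in KO-labelled and 109 CPM in Control cells, a log2 ratio of 0.54. Of 11 measured membrane and blood group genes 2 were lower, among them the tetraspanin gene Tspan33 with 27.8 CPM in the KO-labelled library and 52.6 CPM in Control. Of 19 measured redox genes 3 were lower, the glutathione transferases Gstm5 (KO-labelled 84.5, Control 190 CPM) and Gstp1 (KO-labelled 19.2, Control 40.0 CPM) and the peroxiredoxin Prdx6 (KO-labelled 385, Control 619 CPM). Prdx6 came under 1.5-fold in the same 3 settings, at -0.58, -0.56 and -0.48. Tspan33 did so in the cells without those UMIs and in these clusters, at -0.55 and -0.39.

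Erythroid transcription regulators were divided. Of 18 measured members 3 were higher and 2 lower, and the median was -0.02. Klf1 and Nfia, a nuclear factor I gene of erythroid fate, were the lower ones, and Nfia had 18.3 CPM in the KO-labelled library and 61.7 CPM in Control. The higher ones were Sox6, a repressor of fetal globin, with 30.1 CPM in KO-labelled and 7.56 CPM in Control cells, Lyl1, with 139 CPM in KO-labelled and 70.2 CPM in Control cells, and Lmo2, a bridge of the GATA1 and TAL1 complex, with 511 CPM in KO-labelled and 328 CPM in Control cells. Gata1 had a ratio of 1.01 (0.975 to 1.05), an interval that holds 1. Sox6 lies over the antisense gene Sox6os and Lyl1 overlaps Nfix on the opposite strand, and the labels do not state whether reads were counted by strand.

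The level of Klf1 depended on which cells of the class entered. Cells without a UMI of the megakaryocyte genes Pf4, Gp1bb, Gp9 and Ppbp were selected on unthinned counts. The selection kept 1206 of 3003 KO-labelled and 1460 of 2210 Control cells of the class, so it was unequal between the libraries. In these cells the log2 ratio of Klf1 was -0.56. In the cells of own clusters that scored highest on the erythroid marker list it was -0.44, and both lay under 1.5-fold. In these clusters Klf1 had 144 CPM in the KO-labelled library and 199.6 CPM in Control. Car1 had log2 ratios of -2.66 and -2.52 in the same subsets, and Car2 of -0.80 and -0.66.

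Regulators of the megakaryocyte and stem side were divided as well, with 4 higher and 2 lower of 13 measured members and a median of -0.17. The higher ones included the homeobox gene Meis1, with 166 CPM in KO-labelled and 89.4 CPM in Control cells, the ETS factor Fli1, with 119 CPM in KO-labelled and 59.5 CPM in Control cells, and Runx1 itself. The lower ones were Lmo4, a LIM-only gene, with 35.4 CPM in KO-labelled and 118 CPM in Control cells, and Sox4, with 136 CPM in KO-labelled and 219 CPM in Control cells. Gata2 had 179 CPM in the KO-labelled library and 244 CPM in Control, and Myb 510 CPM in KO-labelled and 710 CPM in Control cells, both under 1.5-fold. Of the other Runx family genes, Runx3 had 151 CPM in KO-labelled and 108 CPM in Control cells and the partner gene Cbfb 52.9 CPM in KO-labelled and 59.1 CPM in Control cells.

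**Figure D2:**
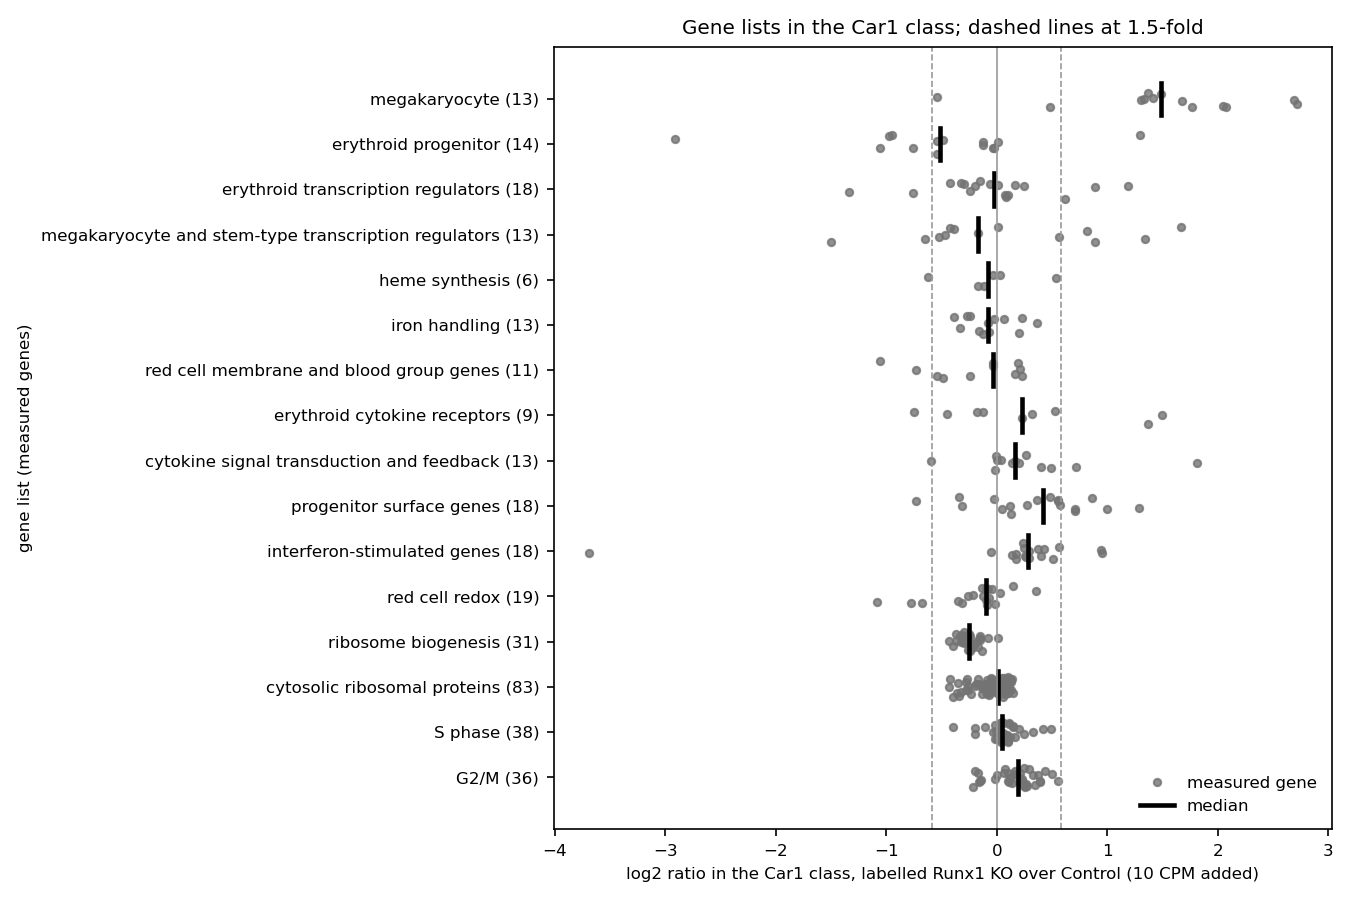
Log2 ratio of the library labelled Runx1 KO over Control in the Car1 class for the measured genes of 16 gene lists (number of measured genes in brackets), each gene a grey point, the median a black bar, and 1.5-fold as dashed lines. The megakaryocyte list has its median at 1.49 and the erythroid progenitor list at -0.51, a value that is -0.10 with each cell weighted alike, while iron handling, ribosomal protein and S phase genes stay between the dashed lines.

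Among lists with more than 2 measured genes, the megakaryocyte list had the highest median in the class of the KO-labelled library. Of 13 measured members 11 passed 1.5-fold upward and none downward, and their median was 1.49. Itga2b (ENSMUSG00000034664, chromosome 11, 102453297 to 102470122, minus strand) was 4.67-fold higher (4.50 to 4.86). Nrgn, a calmodulin-binding gene transcribed in platelets, had 592 CPM in the KO-labelled library and 136 CPM in Control. Treml1, a receptor stored in platelet granules, had 164 CPM in KO-labelled and 17.0 CPM in Control cells, 9.65-fold higher (8.96 to 10.4). Clca3a1, of the calcium-activated chloride channel regulators, had 107 CPM in KO-labelled and 7.79 CPM in Control cells, 13.7-fold higher (12.3 to 15.3). Its log2 ratio, 2.71, was the highest of the class with predicted, clone-named, mitochondrial and sex-linked genes left out. The platelet glycoprotein genes Gp5 (KO-labelled 123, Control 39.7 CPM) and Gp9 (KO-labelled 50.9, Control 14.7 CPM) and Plek, a protein kinase C substrate of platelets (KO-labelled 82.5, Control 23.1 CPM), were higher too.

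In summed UMIs the chemokine gene Pf4 did not share this direction. It had 102 CPM in the class of the KO-labelled library and 153 CPM in Control, a log2 ratio of -0.54. The share of cells with a Pf4 UMI went the other way after thinning to 5000 UMIs, at 15.2% in KO-labelled and 12.7% in Control cells. At least 3 Pf4 UMIs were found in 2.16% of KO-labelled and 4.96% of Control cells. In the own clusters that scored highest on the erythroid list, Pf4 had 47.7 CPM in KO-labelled and 20.3 CPM in Control cells. Pf4 had 3469 CPM in the Pf4 class of the KO-labelled library and 5116 CPM in that of Control. In the Gstm1/CD63 neutrophil progenitors, which should lack it, Pf4 had 74.9 CPM in KO-labelled and 14.5 CPM in Control cells. These sums were uneven among cells. Before thinning the mean was 2.05 Pf4 UMIs in KO-labelled and 0.422 in Control cells of that class. At least 3 UMIs were found in 3.20% of KO-labelled and 0.483% of Control cells there. Summed over the 26 listed genes the megakaryocyte markers came to 2294 CPM in the Car1 class of the KO-labelled library and 713 CPM in Control, against 13193 CPM in KO-labelled and 9887 CPM in Control cells in the Pf4 class. The KO-labelled library also held more Pf4 class cells, and the part of free megakaryocyte RNA or of misassigned cells in the difference was not tested. Among listed genes under the minimum of 30 CPM, Gp1bb had 2.07 CPM in the Car1 class of the KO-labelled library and 1.47 CPM in Control. Vwf, also under it, had 8.97 CPM in KO-labelled and 8.41 CPM in Control cells. In the class cells without a UMI of Pf4, Gp1bb, Gp9 or Ppbp the median of the list was 1.93, and Itga2b had a log2 ratio of 2.18. These 4 genes belong to the list and have no UMI there by selection. Pf4, the only measured member below 0 in the whole class, thus drops out, and the median covers other genes than that of the whole class.

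The promoter windows of 4 genes are printed here because Klf1 and Itga2b mark the 2 sides of the comparison while Serpina3g and St3gal6 stand among the 15 highest genes with both searched motifs. Windows run from 250 bases before to 50 after the start, from RefSeq on GRCm38.p6. Capitals mark the word AGATAA, known from binding of GATA factors, or the word TGTGGT, known from binding of RUNX factors, on either strand. The windows lie at chr8:84901732-84902031 on the plus strand for Klf1, chr11:102469834-102470133 on the minus strand for Itga2b, chr12:104235897-104236196 on the plus strand for Serpina3g and chr16:58524204-58524503 on the minus strand for St3gal6.
Klf1: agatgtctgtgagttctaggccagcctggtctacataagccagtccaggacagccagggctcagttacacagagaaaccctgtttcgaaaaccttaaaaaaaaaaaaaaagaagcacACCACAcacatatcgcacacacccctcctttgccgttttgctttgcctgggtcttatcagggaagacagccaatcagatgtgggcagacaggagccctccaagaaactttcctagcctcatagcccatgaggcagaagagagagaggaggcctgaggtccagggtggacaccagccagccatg
Itga2b: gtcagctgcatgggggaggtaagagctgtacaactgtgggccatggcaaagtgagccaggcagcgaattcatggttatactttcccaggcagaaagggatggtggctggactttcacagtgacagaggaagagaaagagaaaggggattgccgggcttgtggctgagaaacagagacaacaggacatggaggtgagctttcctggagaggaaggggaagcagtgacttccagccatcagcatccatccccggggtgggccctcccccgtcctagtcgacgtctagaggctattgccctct
Serpina3g: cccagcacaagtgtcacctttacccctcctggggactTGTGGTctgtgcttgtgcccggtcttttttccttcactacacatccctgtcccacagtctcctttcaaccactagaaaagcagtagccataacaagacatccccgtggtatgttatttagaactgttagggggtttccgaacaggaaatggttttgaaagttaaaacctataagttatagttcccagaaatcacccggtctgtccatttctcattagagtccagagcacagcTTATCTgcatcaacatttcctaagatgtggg
St3gal6: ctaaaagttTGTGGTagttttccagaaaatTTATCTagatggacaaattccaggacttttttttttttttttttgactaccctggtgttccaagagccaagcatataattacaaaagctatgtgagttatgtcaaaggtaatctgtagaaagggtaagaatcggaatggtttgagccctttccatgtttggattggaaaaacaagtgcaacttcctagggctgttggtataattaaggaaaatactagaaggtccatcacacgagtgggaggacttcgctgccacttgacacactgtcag
Klf1 holds 1 RUNX match, the printed windows of Serpina3g and St3gal6 hold 1 GATA and 1 RUNX match each, and neither word is in the Itga2b window. Another RefSeq window of St3gal6, at chr16:58523377-58523676, holds neither word and is not printed. Among the 12 of the 15 highest genes with a window, 3 held the GATA word and 5 the RUNX word in any window. Among the 11 of the 15 lowest genes with one, 1 and 2 did. Over the 3777 measured genes with a window the shares with a match in any window were 7.28% for the GATA word and 14.2% for the RUNX word. Over all 27025 genes with a window they were 12.7% for the GATA word and 18.9% for the RUNX word. A match is a string of letters and not a bound site.

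The other genes among the 15 highest were of mixed function. The serine protease inhibitor gene Serpina3g had 270 CPM in the KO-labelled library and 52.3 CPM in Control, and it belongs to a cluster of close relatives among which reads may be split. The sialyltransferase gene St3gal6 had 47.3 CPM in KO-labelled and 2.80 CPM in Control cells. Dlk1, an imprinted gene of the Delta and Notch ligand family, had 35.1 CPM from 1742 UMIs and 0.111 CPM from 5 UMIs, a ratio of 315 (135 to 972). Pim1, a survival kinase induced by cytokine signals, had 221 CPM in KO-labelled and 55.6 CPM in Control cells. Gadd45g, a growth arrest gene, had 65.2 CPM in KO-labelled and 10.5 CPM in Control cells, Lat, an adaptor of T cell and platelet receptor signalling, had 142 CPM in KO-labelled and 36.8 CPM in Control cells, and Fam189b had 163 CPM in KO-labelled and 34.8 CPM in Control cells. Gng11, a G protein subunit, F2rl2, a thrombin receptor, and Esam, an adhesion gene of endothelium and platelets, were also among the 15, with log2 ratios of 1.77, 1.68 and 1.65. St3gal6 and F2rl2 overlap genes on the opposite strand, Dcbld2 and Iqgap2.

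**Figure D3:**
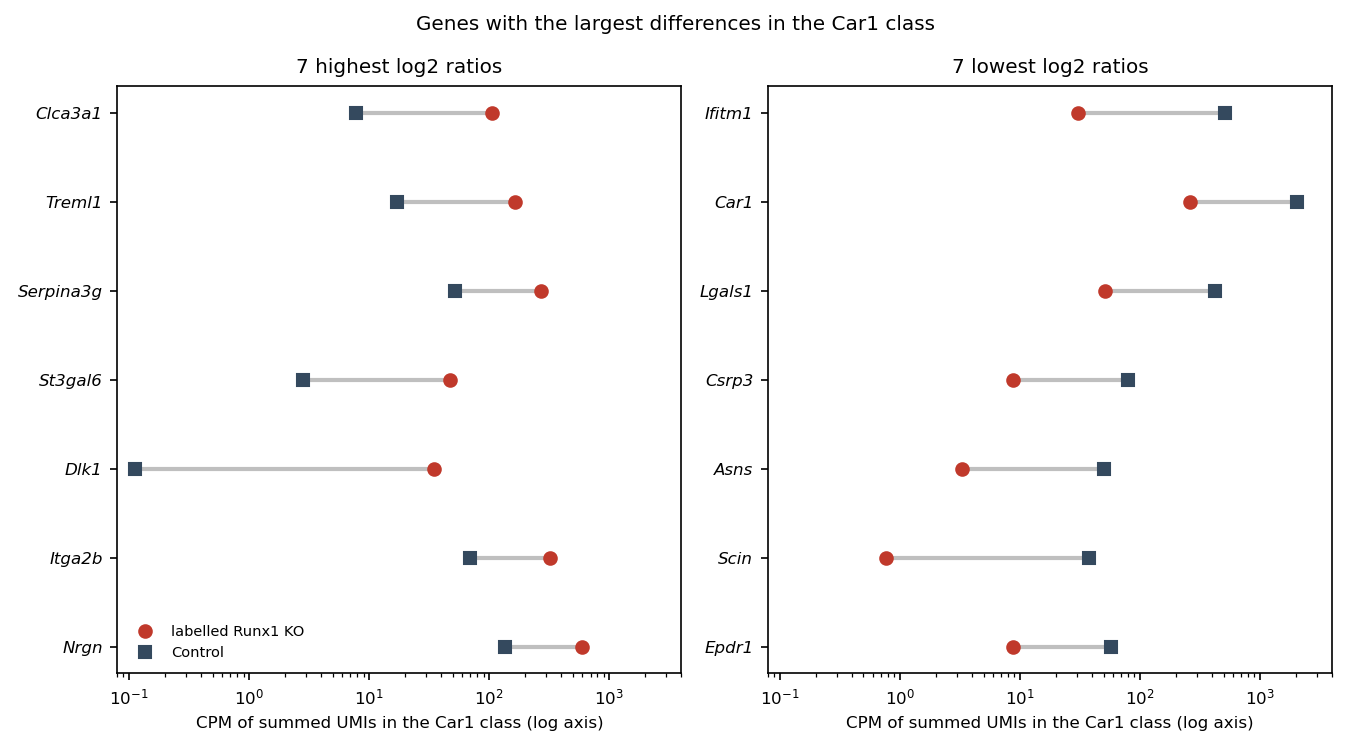
CPM of summed UMIs in the Car1 class (log axis) for the 7 named genes with the highest (left panel) and the 7 with the lowest (right panel) log2 ratio, in the library labelled Runx1 KO (red circles) and in Control (dark squares), 1 library each. Dlk1 spans 35.1 CPM in KO-labelled and 0.111 CPM in Control cells, Clca3a1 107 CPM in KO-labelled and 7.79 CPM in Control cells, and Ifitm1 30.6 CPM in KO-labelled and 515 CPM in Control cells.

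The lowest genes were led by Ifitm1, an interferon-induced membrane gene, with 30.6 CPM in the KO-labelled library and 515 CPM in Control, 16.8-fold lower (15.9 to 17.7). Lgals1, which encodes galectin-1, had 51.6 CPM in KO-labelled and 423 CPM in Control cells, 8.19-fold lower (7.86 to 8.54). The asparagine synthetase gene Asns had 3.30 CPM in KO-labelled and 50.1 CPM in Control cells, while the other 11 measured genes of the amino acid response list stayed within 1.5-fold. Csrp3, a LIM gene known from muscle, had 8.73 CPM in KO-labelled and 79.3 CPM in Control cells, the actin-severing gene Scin 0.765 CPM in KO-labelled and 38.0 CPM in Control cells, and Hdc, the enzyme that makes histamine, 7.44 CPM in KO-labelled and 38.2 CPM in Control cells. The remaining ones included Epdr1, the carboxylesterase gene Ces2g, the protease gene Prss50, Lmo4, the ganglioside activator gene Gm2a, the Rab11 effector gene Rab11fip1 and the mitochondrial carrier gene Slc25a21, with log2 ratios of -1.86 to -1.36.

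Several of these lowest genes also led a cluster of basophil genes that held 3 cells of the KO-labelled library and 529 of Control. Of the class, 2 KO-labelled and 86 Control cells fell in this cluster, which was led by Prss34, Mcpt8 and Gzmb and had Csrp3, Scin, Ifitm1 and Lmo4 among its top 10 genes. The basophil and mast cell markers summed to 172 CPM in the class of the KO-labelled library and 261 CPM in Control, with Prss34 at 0 CPM in KO-labelled and 7.68 CPM in Control cells. The clusters that scored highest on the erythroid list leave out that cluster and also those that scored highest on the megakaryocyte list. The KO-labelled and the Control cells in them come mostly from different clusters. Their values therefore cannot show the part of basophil-like cells, which was not tested. In them, Ifitm1 had 21.1 CPM in the KO-labelled library and 458 CPM in Control, and Scin 0.662 CPM in KO-labelled and 32.9 CPM in Control cells. Csrp3 had 13.2 CPM in KO-labelled and 71.8 CPM in Control cells there, and Hdc 8.61 CPM in KO-labelled and 31.7 CPM in Control cells. Lmo4 came to 29.9 CPM in KO-labelled and 68.4 CPM in Control cells there, a log2 ratio of -0.97.

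Set beside the other classes of the same 2 libraries, the 15 highest genes of the Car1 class lay above 0 on the log2 scale in all 5 compared classes, with medians of 0.72 in Ly86 to 1.68 in Pf4. Of the 15 lowest genes, 14 lay below 0 in Hba-a2, in Pf4 and in CD34, 11 in Ly86 and 12 in Gstm1/CD63, with medians from -0.59 in CD34 to -0.11 in Ly86. The share of all genes on each side of 0 in these classes was not computed, so these counts have no background. Some of the lowest genes were near 0 CPM there, where a sign says little. Scin had 0.0398 CPM in KO-labelled and 0.229 CPM in Control cells of the Pf4 class, and Prss50 0.0874 CPM and 0.222 CPM in the CD34 class. Ifitm1 had a log2 ratio of -3.69 in the Car1 class, -0.97 in Hba-a2 and 0.30 in Gstm1/CD63. Slc25a21 had -1.36 in the Car1 class and -0.02 in the Hba-a2 class, the only one of the 5 compared classes in which it was above 1 CPM. All classes come from the same pair of libraries, and differences between classes were not tested.

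Cytokine receptor genes were divided, and most signal genes lay slightly above 0. Of 9 measured receptor genes 2 were higher, among them Csf2rb, the shared beta chain of the IL-3 and GM-CSF receptors, with 32.0 CPM in the KO-labelled library and 4.87 CPM in Control, and 1 was lower, the interferon gamma receptor gene Ifngr1, with 153 CPM in KO-labelled and 263 CPM in Control cells. The stem cell factor receptor gene Kit had 152 CPM in KO-labelled and 174 CPM in Control cells and Epor, as above, nearly equal levels. Csf2rb has a near-identical copy, Csf2rb2, so its value is uncertain. Of 13 measured signal and feedback genes 10 lay above 0, and Pim1 and Stat3 (KO-labelled 76.0, Control 42.3 CPM) were higher and the Ras-pathway inhibitor Spred1 (KO-labelled 19.9, Control 35.2 CPM) was lower. Stat5a had 83.0 CPM in the KO-labelled library and 82.9 CPM in Control, Stat5b 46.6 CPM in KO-labelled and 47.3 CPM in Control cells, and Jak2 40.3 CPM in KO-labelled and 35.6 CPM in Control cells. Stat3 came under 1.5-fold with each cell weighted alike and after thinning, at 0.52 and 0.53, Ifngr1 in the clusters that scored highest on the erythroid list, at -0.56, and Spred1 in S phase cells, at -0.49.

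Among 18 measured progenitor surface genes 5 were higher and 1 lower, with a median of 0.42. Cd48, a SLAM family ligand, had 230 CPM in the KO-labelled library and 88.5 CPM in Control, and Slamf1, which encodes CD150, had 49.7 CPM in KO-labelled and 19.8 CPM in Control cells. Cd55, a complement regulator, had 82.3 CPM in KO-labelled and 40.9 CPM in Control cells. The thrombin receptor gene F2r (KO-labelled 194, Control 115 CPM) and the mucin gene Muc13 (KO-labelled 240, Control 143 CPM) were the others. The lower one was the tetraspanin gene Cd63, with 81.8 CPM in KO-labelled and 142 CPM in Control cells. Cd63 came under 1.5-fold in S phase cells, at -0.47. Cd34 reached only 19.3 CPM in the KO-labelled library and 25.3 CPM in Control, under the minimum.

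Interferon-stimulated genes other than Ifitm1 lay mostly on the other side. Of 18 measured members 16 lay above 0 and the median was 0.28, but only 2 were at least 1.5-fold higher, Ifi47 with 107 CPM in the KO-labelled library and 50.9 CPM in Control, and Ifi203 with 50.2 CPM in KO-labelled and 21.3 CPM in Control cells. Ifi203 shares its strand and part of its span with Mndal, so its value is uncertain. The neighbours of Ifitm1 in its family had 663 CPM in KO-labelled and 686 CPM in Control cells for Ifitm2 and 284 CPM in KO-labelled and 189 CPM in Control cells for Ifitm3. In the lipid list, Apoe was higher and the desaturase gene Scd2 lower, with 45.9 CPM in KO-labelled and 82.2 CPM in Control cells. Of 18 measured folding genes of the endoplasmic reticulum, the peroxiredoxin Prdx4 was higher, with 185 CPM in KO-labelled and 94.5 CPM in Control cells. In the clusters that scored highest on the erythroid list Scd2 and Prdx4 came under 1.5-fold, at -0.57 and 0.51.

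Cell division and growth genes differed little between the libraries in the class as a whole. None of 38 measured S phase genes and none of 36 G2/M genes passed 1.5-fold, with medians of 0.05 and 0.19. Among 12 measured G1 genes, the inhibitor gene Cdkn2d (KO-labelled 77.4, Control 36.5 CPM) and the cyclin gene Ccnd3 (KO-labelled 171, Control 103 CPM) were higher, and the cyclin genes Ccnd2 (KO-labelled 168, Control 278 CPM) and Ccne1 (KO-labelled 18.7, Control 34.98 CPM) were lower. Each of these 4 calls ended under a setting. In the clusters that scored highest on the erythroid list Cdkn2d had 0.39, Ccnd3 0.51 and Ccnd2 -0.44, and Ccne1 had -0.33 with each cell weighted alike, -0.42 after thinning and -0.57 in S phase cells. Ribosome biogenesis genes lay slightly lower, with 30 of 31 below 0, a median of -0.26 and none past 1.5-fold. The 83 measured ribosomal protein genes had a median of 0.01. Of 9 immediate-early and heat-shock genes, Hsph1 was lower, with 60.3 CPM in the KO-labelled library and 132 CPM in Control. None of 13 mitochondrially encoded genes, 7 Bcl2 family genes or 5 p53 target genes passed 1.5-fold. Y-linked Ddx3y had 52.6 CPM in the KO-labelled library and 52.5 CPM in Control.

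Markers of other lineages were present at low levels and differed between the libraries. Of 5 measured neutrophil progenitor genes 4 were lower in the KO-labelled library, with the list summing to 418 CPM there and 704 CPM in Control, against 11741 CPM in KO-labelled and 12313 CPM in Control cells outside the class. Mpo, a granule peroxidase, had 69.3 CPM in the class of the KO-labelled library and 157 CPM in Control. The mature neutrophil genes S100a8 (KO-labelled 52.6, Control 10.7 CPM) and S100a9 (KO-labelled 66.7, Control 14.5 CPM) were higher, as they were in the other cells, where S100a8 had 3281 CPM in KO-labelled and 821 CPM in Control cells. Monocyte, macrophage, eosinophil, lymphoid progenitor, B cell and stromal lists had no measured gene in the class. Of 7 measured multipotent progenitor genes 3 were higher, Meis1, Gcnt2 (KO-labelled 46.0, Control 20.4 CPM) and Mllt3 (KO-labelled 77.5, Control 35.9 CPM), and Sox4 was lower. The part of free RNA and of other cells in these levels was not tested.

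To compare the spread among cells at equal depth, each cell was thinned to 5000 UMIs, which kept 2921 of the 3003 KO-labelled and 2097 of the 2210 Control cells of the class. A Car1 UMI was then seen in 24.4% (22.9 to 26.0) of KO-labelled and 73.8% (71.8 to 75.6) of Control cells, against 33.2% in KO-labelled and 81.1% in Control cells before thinning. In the Gstm1/CD63 progenitors, with median depths of 26825 UMIs in KO-labelled and 28810 UMIs in Control cells before thinning, the shares with a Car1 UMI were 2.30% in KO-labelled and 9.26% in Control cells. Cells with at least 3 Car1 UMIs made up 13.2% of the class in the KO-labelled library and 61.7% in Control. Itga2b UMIs were seen in 61.9% (60.1 to 63.7) of KO-labelled and 25.4% (23.6 to 27.3) of Control cells, against 23.1% in KO-labelled and 10.9% in Control cells of the Gstm1/CD63 progenitors. Klf1 was seen in 31.6% of KO-labelled and 51.7% of Control cells, against 0.459% of KO-labelled and 0.842% of Control cells in the Gstm1/CD63 progenitors. Gata1 was seen in 43.6% of KO-labelled and 41.9% of Control cells.

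Ifitm1 was uneven within Control. After thinning it was seen in 10.2% of KO-labelled and 44.4% of Control cells, and at least 3 UMIs were found in 0.890% of KO-labelled and 25.3% of Control cells. Lgals1 was broader, at 15.6% in KO-labelled and 68.3% in Control cells. Nrgn was seen in 82.0% of KO-labelled and 37.9% of Control cells. Dlk1 was seen in a minority of cells even in the KO-labelled library, 8.59% (7.60 to 9.67), against 0.0954% (0.0116 to 0.344) in Control.

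**Figure D4:**
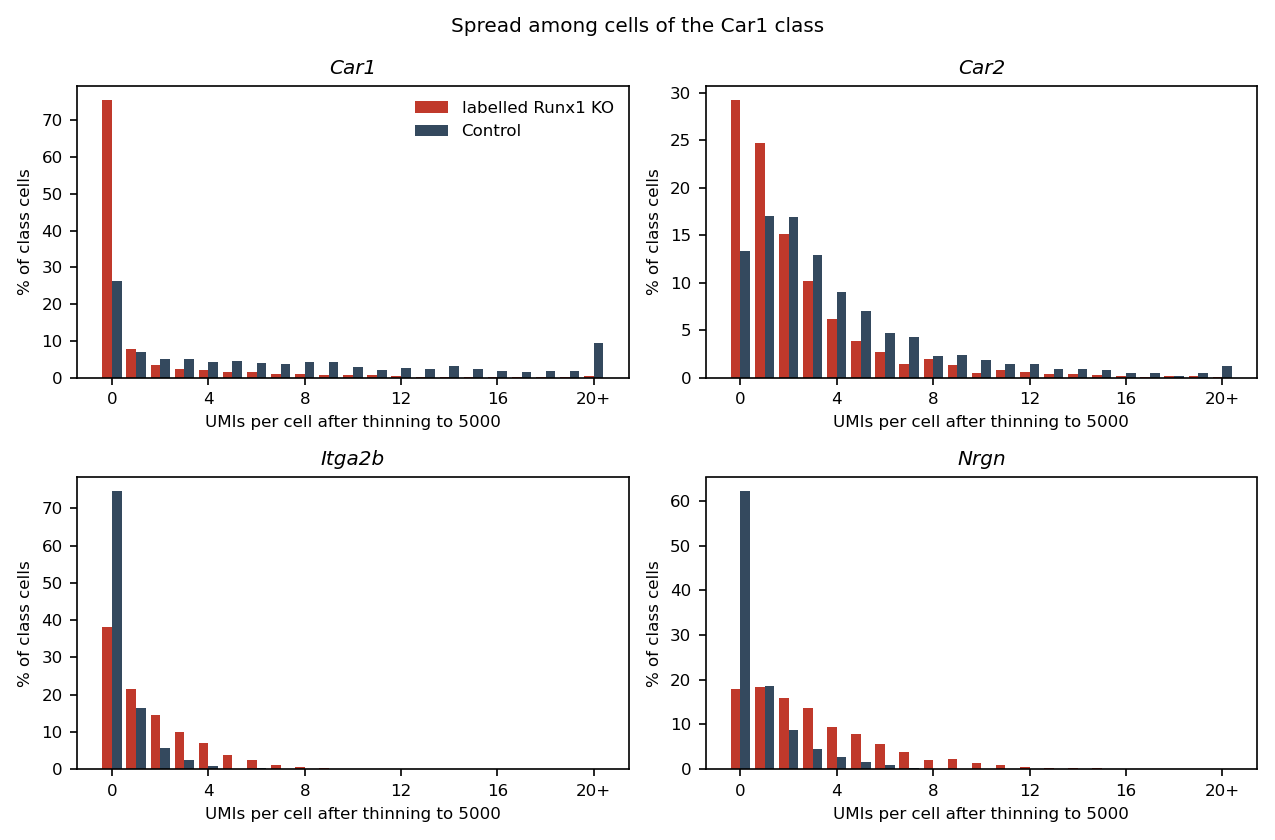
Share of cells of the Car1 class by number of UMIs after thinning each cell to 5000, for Car1, Car2, Itga2b and Nrgn, with the library labelled Runx1 KO in red to the left and Control dark to the right of each number, and 20 or more in the last bar. Cells with no Car1 UMI outnumber the others in the KO-labelled library, where 24.4% had one, while 73.8% of Control cells had one.

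A larger share of cells carried erythroid and megakaryocyte markers together in the KO-labelled library. Counting a cell as positive for a list when it had UMIs of at least 3 of its markers after thinning, 54.8% of KO-labelled and 19.6% of Control cells of the class were positive for both lists. Cells positive for the erythroid list alone made up 17.1% in KO-labelled and 68.7% in Control cells, and for the megakaryocyte list alone 26.8% in KO-labelled and 7.92% in Control cells. The median cell had UMIs of 4 erythroid and 5 megakaryocyte markers in the KO-labelled library and of 5 and 1 in Control. In the Gstm1/CD63 progenitors 1.68% of KO-labelled and 0.673% of Control cells were positive for both lists, and 14.4% in KO-labelled and 4.55% in Control cells for the megakaryocyte list alone. In the Hba-a2 class 17.0% of KO-labelled and 1.10% of Control cells were positive for both, and in the Pf4 class 47.3% of KO-labelled and 36.1% of Control cells.

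**Figure D5:**
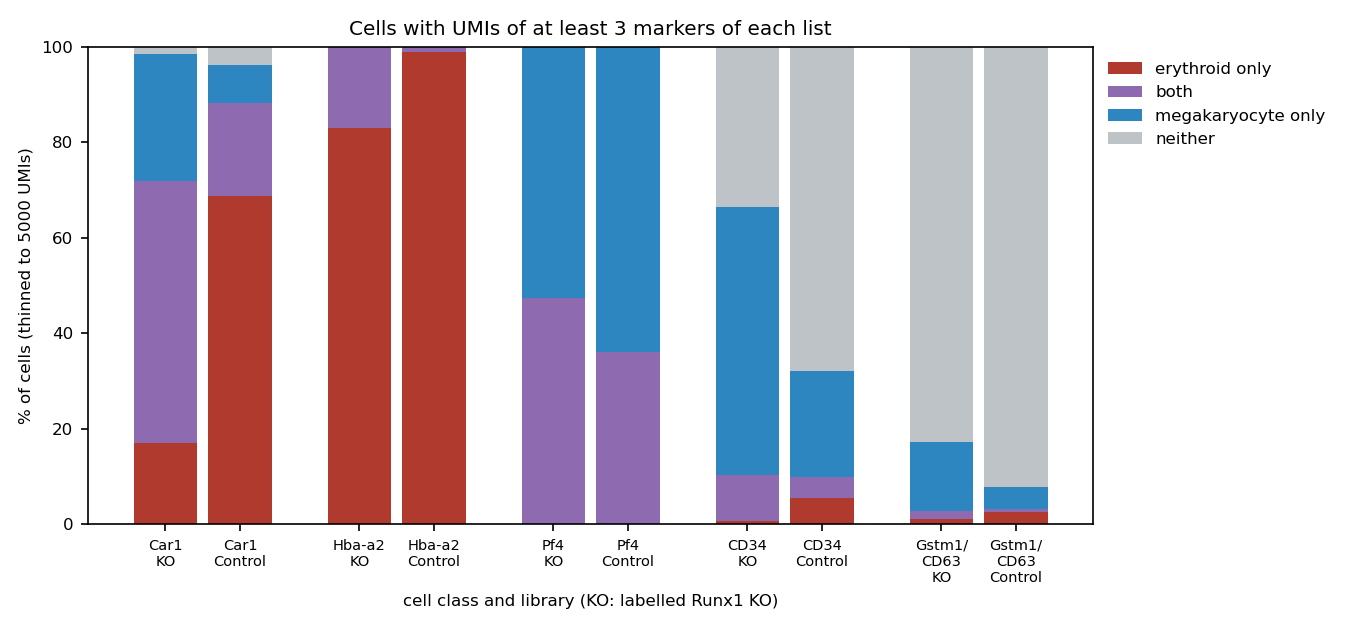
Share of cells, after thinning to 5000 UMIs, with UMIs of at least 3 markers of the erythroid list alone, of both lists, of the megakaryocyte list alone or of neither, in 5 classes, with the library labelled Runx1 KO (KO) to the left of Control. In the Car1 class 54.8% of KO-labelled and 19.6% of Control cells carried both.

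The class did not fall into the same clusters in the 2 libraries. In own clustering of both libraries together, 1618 KO-labelled and 2 Control cells of the class lay in a cluster whose leading genes included Apoe, Clca3a1, Trib2 and Gnb4, and 21 KO-labelled and 1421 Control cells lay in another led by Car1, Trib2, Rab11fip1 and Epdr1. Both scored highest on the erythroid list, although the cluster led by Apoe and Clca3a1 had none of its markers among the top 10 genes. Clusters that scored highest on the megakaryocyte list held 39.6% of the KO-labelled cells of the class and 6.97% of the Control cells. The annotated class thus joins cells that separate by library, and genotype and library cannot be told apart with 1 library each. The clusters that scored highest on the erythroid list held 1787 KO-labelled and 1915 Control cells, but 1618 of the KO-labelled ones came from the cluster led by Apoe and Clca3a1, itself a gene of the megakaryocyte list. Values over these clusters therefore compare different clusters, formed from the same genes, and describe no common group of cells. Over them, the 12 measured megakaryocyte genes were each 1.5-fold higher or more, at a median of 1.44, and 23 of 34 measured G2/M genes were at least 1.5-fold lower, at a median of -0.83. Of all 4615 genes measured over these clusters, 136 (2.95%) were at least 1.5-fold higher and 125 (2.71%) at least 1.5-fold lower. A cluster of 2 KO-labelled and 260 Control cells of the class with Car1, Klf1 and Mki67 among its leading genes was part of them, and a cluster of 718 KO-labelled and 18 Control cells with Treml1, Nrgn and Mki67 was not.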

How the data were processed

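Single-cell RNA of sorted mouse marrow progenitors was measured in 2 libraries, 1 per genotype label. The authors deposited counts, as UMIs of 31053 genes in each of 14795 cells. Per the submitters' processing notes, Cell Ranger and mm10 were used; versions, settings and the use of strand are unstated. Their deposited annotation gives, for each cell, counts of UMIs and genes, the mitochondrial fraction, a size factor (a ratio, the UMI total over 1 fixed value), the library name and the class. The library called wild type in the annotation was taken to be Control. The members and the gene lists were chosen with earlier results of these data known.

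UMIs were summed over the cells of the class in each library and scaled to 1000000 (CPM). Genes were located by identifier in GENCODE M21 on GRCm38, where 31011 of 31053 identifiers matched. Named genes were the 15 highest and 15 lowest log2 ratios among measured genes (predicted, clone-named, mitochondrial and sex-linked genes left out), up to 4 members of each of 27 gene lists, Runx1, the 5 given markers and the 10 leading genes of class over rest; the marker list genes, and any other gene, were chosen after their values were seen. Shares carry exact binomial (Clopper-Pearson) and ratios exact Poisson 95% intervals. No cell was left out of the main values. Scrublet marked 2.80% of KO-labelled and 2.49% of Control cells of the class as doublets, and they were left out in an alternative only. Own Leiden clusters (2000 variable genes, 30 components, 15 neighbours, resolution 0.5) each took the name of the marker list with the highest mean score. Cells were thinned without replacement. The comparison was checked on simulated data. Alternatives changed the pseudocount, the minimum, the scaling, the cells and the fold. Work used Python 3.11.15, numpy 2.4.6, scipy 1.17.1, pandas 2.3.3, scanpy 1.11.5 and matplotlib 3.10.9. Some genes that the rule names are not reported here.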

Additional observations from a re-analysis of the deposited data

Results flagged for a closer look

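Of the named genes, 2 passed 1.5-fold in opposite directions in the Car1 class and in another class where they reached 30 CPM. Hdc, the histamine enzyme, was lower in the Car1 class of the library labelled Runx1 KO, with 7.44 CPM there and 38.2 CPM in Control, and higher in the Ly86 class, with 53.01 CPM and 23.4 CPM, a log2 ratio of 0.91. Ifngr1, the interferon gamma receptor gene, had 153 CPM in the Car1 class of the KO-labelled library and 263 CPM in Control, and in the Ly86 class 275 CPM and 141 CPM, a log2 ratio of 0.92. Each class has 1 library per group, and the difference between the classes was not tested.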

How the results depend on the processing

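All 64 named genes past 1.5-fold kept their direction in the 12 alternatives. A changed fold, minimum or pseudocount cannot turn a direction, and the other alternatives reuse the same libraries. This count is therefore no independent support. Genes at least 1.5-fold higher in the KO-labelled library were 173 of 4714 measured (3.67%) in the main comparison. They were 277 of 7988 (3.47%) with a minimum of 10 CPM and 303 of 12892 (2.35%) with no minimum on CPM and 20 UMIs. At 2-fold they were 62 of 4714 (1.32%). Genes at least 1.5-fold lower were 92 (1.95%) in the main comparison and 152 (1.18%) with no minimum on CPM. At 2-fold 28 (0.594%) were lower. The lower minima thus raised the number of genes counted while the share past 1.5-fold fell. The share of the class in the KO-labelled library moved to 49.2% with the Pf4 class left out, and in Control to 33.1%. In the clusters that scored highest on the erythroid list 10 named genes came under 1.5-fold (Klf1, Ifngr1, Tspan33, Scd2, Ccnd2, Prdx6, Alad, Ccnd3, Prdx4 and Cdkn2d). In cells without a UMI of 4 megakaryocyte genes 5 did (Klf1, Tspan33, Prdx6, Alad and Ccnd3), with each cell weighted alike 4 (Prdx6, Ccne1, Alad and Stat3), in S phase cells 3 (Cd63, Ccne1 and Spred1) and after thinning 2 (Ccne1 and Stat3). The median of the erythroid progenitor list, -0.51, ranged from -0.57 to -0.10 over the alternatives, and that of the megakaryocyte list from 1.33 to 1.93. The value of 1.93 came from the cells selected to lack UMIs of 4 genes of that list. Thinned to 10000 UMIs, cells of the class positive for both marker lists made up 83.8% in the KO-labelled library and 43.5% in Control. Scaling by the median ratio moved all log2 ratios by 0.01. With 1 library per group, no library could be left out. No paired analysis was possible because each group has 1 library.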
